A study of Mus musculus with 75 samples.

Results

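GABA, the main inhibitory transmitter of the cortex, is made, packed, sensed and cleared by a small set of proteins, and 27 genes of that machinery are described here in ribosome-bound RNA of the mouse visual cortex. The members were taken by symbol: all 27 listed genes were present among the 14261 named genes of the deposited table. They comprise enzymes and carriers for GABA (Gad1, Gad2, Slc32a1, Slc6a11, Abat, Aldh5a1), subunits of the GABA-A receptor (Gabra2, Gabra3, Gabra4, Gabra5, Gabrb1, Gabrb2, Gabrg1, Gabrg3, Gabrd), both subunits of the GABA-B receptor (Gabbr1, Gabbr2) and glycine receptor subunits (Glra2, Glra3, Glrb). The remaining members are scaffold, adhesion and trafficking genes (Gphn, Iqsec3, Slitrk3, Gabarap, Gabarapl1) and the chloride transporters Slc12a2 and Slc12a5.

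The study used RiboTag mice, in which a Cre recombinase switches on an HA-tagged copy of the ribosomal protein Rpl22, so that ribosomes and their bound messenger RNA can be pulled out of Cre-expressing cells with an antibody. Mice of 8 weeks on a C57BL/6 background carried 1 copy of the tagged Rpl22 allele, in all groups, and 1 copy of a Cre driver. The drivers were Gad2-Cre, which marks inhibitory neurons at large, Pv-Cre, Sst-Cre and Vip-Cre, which mark inhibitory classes named after parvalbumin, somatostatin and vasoactive intestinal peptide, and Emx-Cre, which marks excitatory cortical neurons. Mice of each line were taken 1 h, 3 h or 7.5 h into light that ended dark housing, or from standard housing, or straight from the dark, with the visual cortices of 3 mice pooled per sample and 3 biological replicates planned per group. The question put by this design is how renewed vision changes the RNA that each class of neuron holds on its ribosomes. Of 75 samples, 73 had values: the Sst-Cre standard and dark groups had 2 libraries each, and the other 23 groups had 3.

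Neurons make GABA from glutamate with glutamate decarboxylase, which Gad1 and Gad2 encode, and the vesicular carrier Slc32a1 loads it into vesicles. Released GABA opens GABA-A receptors, chloride channels built of alpha, beta and gamma or delta subunits, and activates the slower G-protein-coupled GABA-B receptors; membrane transporters such as Slc6a11 clear it, and Abat and Aldh5a1 break it down. The effect of an open GABA-A or glycine receptor depends on the chloride gradient, which Slc12a2 loads and Slc12a5 unloads, and gephyrin (Gphn) anchors both kinds of receptor at inhibitory synapses.

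Values are the authors' normalized signal per gene, which compares libraries but not genes of different length. The size of the smallest steps put the depth at 7.25 to 52.2 M reads per library, with a median of 24.7 M reads, and at a median of 12.9 M reads in the 7.5 h group and 15.2 M reads under standard housing, against 33.1 M reads in dark. Marker genes fitted the labels of the lines: Pvalb, Sst and Vip each had their highest median in their own line, and the summed signal of 6 excitatory markers had medians of 2406 to 9072 in the inhibitory lines, against 52286 in Emx-Cre. The Emx-Cre libraries were also rich in astrocyte and oligodendrocyte RNA, lineages which an Emx1-driven Cre is known to include. The summed signal of 8 astrocyte markers had medians of 14319 in Gad2-Cre, 15554 in Pv-Cre, 19430 in Sst-Cre and 55076 in Vip-Cre, against 161870 in Emx-Cre, and that of 6 oligodendrocyte markers had medians of 5004 to 11325 in the inhibitory lines, against 65631 in Emx-Cre. The summed signal of 6 microglia markers ran the other way, with medians of 305 to 1692 in the inhibitory lines, against 162 in Emx-Cre. No excitatory or astrocyte marker was at 0 in any library, and no oligodendrocyte marker was at 0 in all libraries of a group. In such bulk samples fewer cells of a type and less RNA per cell cannot be told apart, and p-values measure the spread between pools of mice.

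The lines were compared over all 5 housing conditions with limma, which fits each gene by itself and pools information on the variance over genes. A member was called at a Benjamini-Hochberg false discovery rate of 5% and at least a 2-fold difference, that is an absolute log2 difference of at least 1. This fit took the libraries of a line as independent. Libraries of equal replicate number deviated together in every line, which its standard errors and p-values do not allow for. With the inhibitory lines set against Emx-Cre, 13 of 27 members were called for Gad2-Cre (25.4% of all genes), 7 higher (10.3%) and 6 lower (15.1%). For Pv-Cre 16 were called (31.4%), 9 higher (10.8%) and 7 lower (20.6%). For Sst-Cre 9 were called (25.4%), 7 higher (9.50%) and 2 lower (15.9%), and for Vip-Cre 10 (24.6%), 6 higher (9.85%) and 4 lower (14.7%). Among the inhibitory classes, Pv-Cre against Sst-Cre gave 8 members (13.8%), 5 higher (4.73%) and 3 lower (9.05%). Pv-Cre against Vip-Cre gave 8 (26.5%), 3 higher (9.37%) and 5 lower (17.2%), and Sst-Cre against Vip-Cre gave 5 (16.1%), 3 higher (6.34%) and 2 lower (9.73%). The median log2 difference of the members was 0.34 for Gad2-Cre, 0.49 for Pv-Cre, 0.16 for Sst-Cre and 0.01 for Vip-Cre against Emx-Cre, beside medians over all genes of 0.01, -0.02, -0.01 and -0.06. The libraries of the compared lines did not overlap in 61 of the 69 calls. These calls were spread over 19 members, and 8 members were called in none of the 7 comparisons. The matching shares over all genes were not worked out, so these counts do not set the members apart from other genes.

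**Figure D1:**
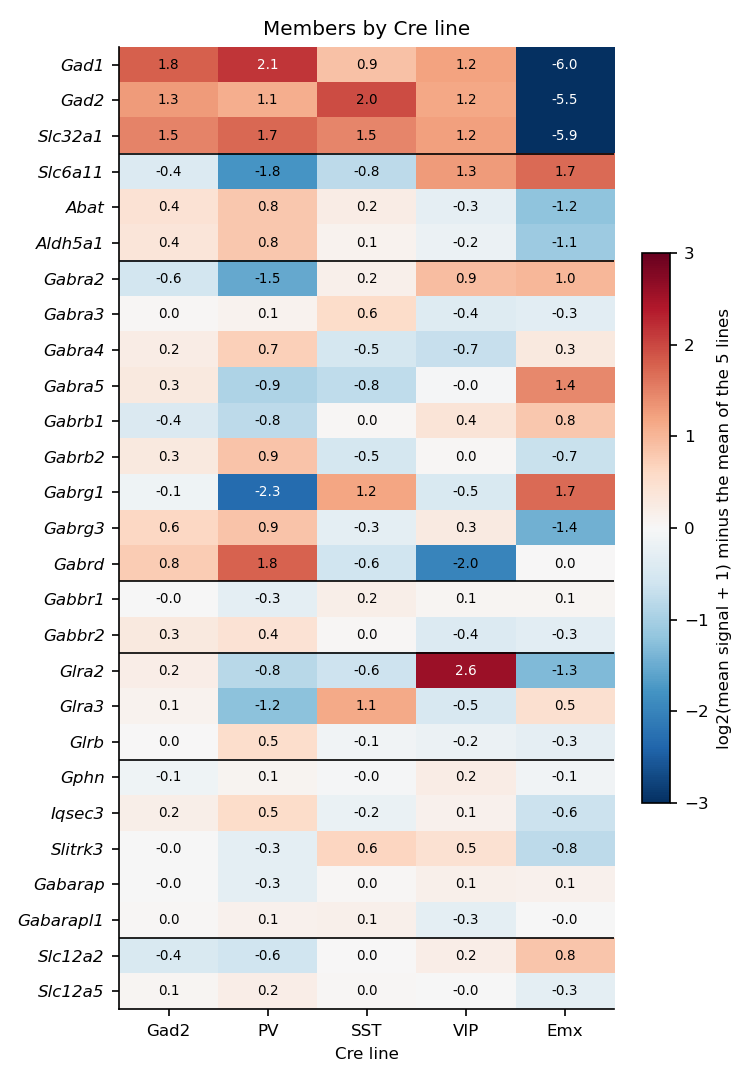
Level of each of the 27 members in the 5 Cre lines, drawn as the log2 of the mean signal + 1 minus its mean over the 5 lines, with rows ordered by role and the lines written Gad2, PV, SST, VIP and Emx. Gad1, Gad2 and Slc32a1 separate the inhibitory lines from Emx, while Gabrd and Gabrg1 differ widely among PV, SST and VIP.

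The genes that define an inhibitory neuron, Gad1, Gad2 and Slc32a1, set the lines apart most. The stretch of 150 bases just upstream of the annotated start of each is shown, because these 3 neighbours in function had the steepest difference between lines; all are from RefSeq on GRCm38.p6, plus strand, at chr2:70561979-70562128 for Gad1, chr2:22622177-22622326 for Gad2 and chr2:158610608-158610757 for Slc32a1, with capitals marking a match to a searched motif.
Gad1: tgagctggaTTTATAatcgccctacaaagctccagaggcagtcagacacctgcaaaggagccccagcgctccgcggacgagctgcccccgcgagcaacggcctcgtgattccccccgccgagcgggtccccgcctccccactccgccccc
Gad2: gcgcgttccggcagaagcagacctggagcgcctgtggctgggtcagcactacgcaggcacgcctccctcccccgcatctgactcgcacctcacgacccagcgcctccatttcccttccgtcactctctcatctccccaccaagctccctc
Slc32a1: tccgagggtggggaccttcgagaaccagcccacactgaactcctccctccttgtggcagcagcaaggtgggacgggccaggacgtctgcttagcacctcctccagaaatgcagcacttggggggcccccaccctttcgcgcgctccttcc
The 250 bases upstream of 24 members were searched on both strands for TGACGTCA (the CRE), TGANTCA (the AP-1 site), TAATTA (a homeodomain core) and TATAAA (the TATA box), letters that 1.55%, 6.75%, 4.84% and 12.4% of all promoter windows of that table hold. Among the 3 genes the search found a TATA match on the reverse strand at -141 of Gad1. Elsewhere it found homeodomain letters before Gabrg1, AP-1 letters before Slc12a5 and TATA letters before Gabra3, Gabrb2 and Glra2.

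Gad1, which encodes the decarboxylase GAD67, had a signal with lowest, median and highest values of 30465, 36319 and 42301 in Gad2-Cre, 39400, 43415 and 59241 in Pv-Cre, 13173, 19491 and 25590 in Sst-Cre and 17747, 23912 and 31348 in Vip-Cre, against 80.5, 156 and 273 in Emx-Cre. Every inhibitory library lay far above every Emx-Cre library, and every Pv-Cre library above every Sst-Cre and Vip-Cre library. Against Emx-Cre the log2 difference of Gad1 was 7.86 in Gad2-Cre, 8.21 in Pv-Cre, 6.91 in Sst-Cre and 7.28 in Vip-Cre, with standard errors of 0.093 to 0.098 and adjusted p-values from 2.83e-51 to 2.82e-56. Between classes Gad1 was higher in Pv-Cre than in Sst-Cre by 1.30 on the log2 scale (2.47-fold, SE 0.098, adjusted p = 2.26e-17), while its log2 difference of 0.93 from Vip-Cre stayed under the 2-fold mark.

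Gad2, which encodes GAD65, found mainly at nerve terminals, had its highest level in Sst-Cre. Its lowest, median and highest signals were 39661, 45261 and 53703 in Gad2-Cre, 31329, 39086 and 50351 in Pv-Cre, 50556, 68787 and 111650 in Sst-Cre and 31937, 39589 and 59750 in Vip-Cre, against 218, 365 and 830 in Emx-Cre. The Gad2-Cre allele sits at the Gad2 gene itself in commonly used lines, but the level of Gad2 in that line lay within the range of the other classes. The log2 difference of Gad2 from Emx-Cre was 6.83 in Gad2-Cre, 6.65 in Pv-Cre, 7.49 in Sst-Cre and 6.71 in Vip-Cre. Among classes its differences of -0.84 for Pv-Cre against Sst-Cre and 0.79 for Sst-Cre against Vip-Cre did not reach 2-fold.

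The balance of the decarboxylase genes lay furthest towards Gad1 in the Pv class and furthest towards Gad2 in the Sst class. The ratio of Gad1 to Gad2 signal within a library had medians of 0.823 in Gad2-Cre, 1.23 in Pv-Cre, 0.283 in Sst-Cre, 0.591 in Vip-Cre and 0.405 in Emx-Cre, with ranges of 0.650 to 0.962, 0.862 to 1.37, 0.198 to 0.331, 0.461 to 0.673 and 0.238 to 0.575. No Pv-Cre library overlapped any Sst-Cre or Vip-Cre library, nor did any Sst-Cre library overlap any Vip-Cre library. The ratio is not corrected for gene length, so that its order across lines, not its distance from 1, can be read.

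Of these 3 genes, Slc32a1, the vesicular GABA carrier, was the most even among the inhibitory classes. Its lowest, median and highest signals were 8726, 10739 and 12037 in Gad2-Cre, 9865, 12580 and 14425 in Pv-Cre, 8806, 10211 and 12412 in Sst-Cre and 6394, 8723 and 12943 in Vip-Cre, against 24.1, 60.4 and 112 in Emx-Cre. The 4 inhibitory lines overlapped one another and all stood above Emx-Cre, by log2 differences of 7.51, 7.73, 7.47 and 7.23 in Gad2-Cre, Pv-Cre, Sst-Cre and Vip-Cre. In the annotation 24.9% of the Slc32a1 exon length is shared with another gene, and the strand setting of the counting is not given in the sources used here.

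**Figure D2:**
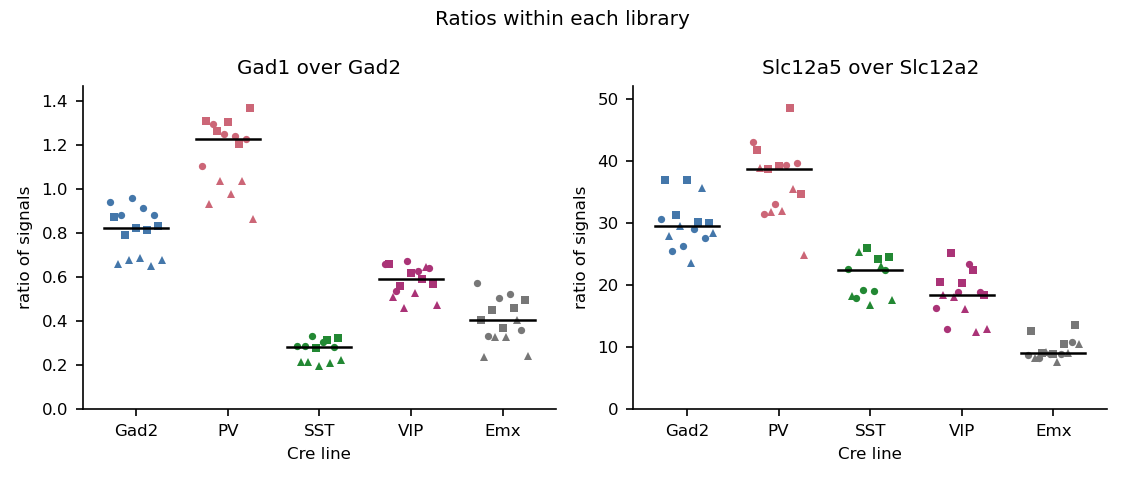
Ratio of Gad1 to Gad2 signal and of Slc12a5 to Slc12a2 signal in each library of the 5 Cre lines, with bars at the medians. PV has the highest median in both panels, with a range that overlaps Gad2, SST is lowest for Gad1 over Gad2 (median 0.283) and Emx is lowest for Slc12a5 over Slc12a2 (median 9.04).

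The uptake gene Slc6a11 and the breakdown genes Abat and Aldh5a1 differed from Emx-Cre in opposite senses. In Vip-Cre none of these differences was called, that of Slc6a11 being -0.43 on the log2 scale. Slc6a11, the GABA transporter GAT-3 that is best known from astrocytes, had lowest, median and highest signals of 516, 836 and 1002 in Gad2-Cre, 204, 293 and 453 in Pv-Cre, 397, 598 and 1015 in Sst-Cre and 1296, 2483 and 3477 in Vip-Cre, against 2370, 3763 and 4169 in Emx-Cre. Vip-Cre and Emx-Cre, the lines with the most Slc6a11, also held the most summed astrocyte marker signal, at medians of 55076 and 161870. Slc1a2 made up most of that sum, at medians of 50377 and 140410. The other astrocyte markers also had their highest median in Emx-Cre and the next in Vip-Cre, except Slc4a4. Its medians were 2248 in Vip-Cre, 3661 in Pv-Cre and 3688 in Emx-Cre. The part of astrocyte RNA in the Slc6a11 values was not tested. Slc6a11 was lower than in Emx-Cre by log2 differences of -2.11 in Gad2-Cre, -3.50 in Pv-Cre and -2.53 in Sst-Cre (SE 0.14 to 0.15, adjusted p from 2.33e-19 to 3.26e-29), and lower than in Vip-Cre by -3.07 in Pv-Cre and -2.10 in Sst-Cre. With the replicate number as a term, Slc6a11 was also called lower in Pv-Cre than in Sst-Cre.

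Abat, the GABA transaminase, and Aldh5a1, the succinate semialdehyde dehydrogenase that takes the next step, were higher in the inhibitory lines. The median signal of Abat was 12462 in Gad2-Cre, 16453 in Pv-Cre, 10763 in Sst-Cre and 7252 in Vip-Cre, against 3869 in Emx-Cre, and no inhibitory library reached down to the Emx-Cre range of 3387 to 4262. Abat was higher than in Emx-Cre by log2 differences of 1.64 in Gad2-Cre, 2.02 in Pv-Cre and 1.44 in Sst-Cre, with 0.93 in Vip-Cre, under 2-fold. Aldh5a1 followed the same order: its medians were 7670, 10350, 6237 and 5552 in Gad2-Cre, Pv-Cre, Sst-Cre and Vip-Cre, against 2796 in Emx-Cre, and its log2 differences were 1.45, 1.89, 1.21 and, not reaching 2-fold, 0.93. In Pv-Cre Abat was also 2.12-fold higher than in Vip-Cre. For Aldh5a1, 17.7% of the exon length is shared with another annotated gene.

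Of the GABA-A receptor subunits, Gabrd and Gabrg1 differed most between inhibitory classes, Gabrd being highest and Gabrg1 lowest in Pv-Cre. Gabrd encodes the delta subunit, known for receptors outside the synapse. Its lowest, median and highest signals were 966, 1662 and 2380 in Gad2-Cre, 2042, 3382 and 5470 in Pv-Cre, 367, 649 and 923 in Sst-Cre and 120, 238 and 364 in Vip-Cre, against 620, 969 and 1336 in Emx-Cre. Pv-Cre libraries all stood above those of Sst-Cre, Vip-Cre and Emx-Cre, and Vip-Cre libraries below those of all other lines. Gabrd was 5.22-fold higher in Pv-Cre than in Sst-Cre, 13.8-fold higher in Pv-Cre than in Vip-Cre, and 3.32-fold higher in Pv-Cre than in Emx-Cre, with adjusted p-values of 1.75e-18, 1.68e-28 and 1.81e-14. It was 2.64-fold higher in Sst-Cre than in Vip-Cre (adjusted p = 2.19e-10) and lower in Vip-Cre than in Emx-Cre by a log2 difference of -2.05 (SE 0.16, adjusted p = 5.37e-17).

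Gabrg1, a gamma subunit gene, was high in Sst-Cre and Emx-Cre and lowest in Pv-Cre. Its lowest, median and highest signals were 87.7, 120 and 141 in Gad2-Cre, 11.7, 23.8 and 45.3 in Pv-Cre, 186, 293 and 392 in Sst-Cre and 36.4, 72.9 and 282 in Vip-Cre, against 318, 423 and 524 in Emx-Cre. Pv-Cre libraries stood below all Sst-Cre libraries, while the Vip-Cre range overlapped both. The log2 difference of Gabrg1 was -3.57 for Pv-Cre against Sst-Cre (SE 0.15, adjusted p = 9.14e-28), -1.73 for Pv-Cre against Vip-Cre and 1.84 for Sst-Cre against Vip-Cre. Against Emx-Cre it was -1.82 in Gad2-Cre, -4.07 in Pv-Cre and -2.34 in Vip-Cre, with -0.50 in Sst-Cre, which was not called. The summed astrocyte markers had medians of 19430 in Sst-Cre and 55076 in Vip-Cre, against 161870 in Emx-Cre, and their part in the Gabrg1 values was not tested.

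Gabrg1 lies beside Gabra2, Gabra4 and Gabrb1 on chromosome 5, in a cluster of receptor genes known in mammals, and these neighbours did not share 1 order of lines. Gabra2, an alpha subunit gene, had lowest, median and highest signals of 198, 304 and 403 in Gad2-Cre, 92.4, 132 and 378 in Pv-Cre, 279, 500 and 651 in Sst-Cre and 499, 816 and 1196 in Vip-Cre, against 711, 894 and 1126 in Emx-Cre. Pv-Cre was lowest, but its highest library, replicate 1 at 7.5 h, overlapped Sst-Cre. Gabra2 was lower in Pv-Cre than in Emx-Cre by a log2 difference of -2.61, than in Vip-Cre by -2.51 and than in Sst-Cre by -1.76 (SE 0.12 to 0.13, adjusted p from 8.61e-27 to 7.22e-18), and lower in Gad2-Cre than in Emx-Cre by -1.57.

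Gabra4, which encodes an alpha subunit that is known to pair with delta, ran the other way: its lowest, median and highest signals were 3300, 3728 and 4492 in Gad2-Cre, 4449, 5307 and 6402 in Pv-Cre, 1800, 2230 and 2741 in Sst-Cre, 1635, 1973 and 2470 in Vip-Cre and 3085, 3998 and 4984 in Emx-Cre. Pv-Cre libraries were all above those of Sst-Cre and Vip-Cre, by 2.38-fold and 2.67-fold, with adjusted p-values of 4.34e-24 and 7.50e-28. Gabrb1 followed Gabra2, with medians of 287 in Gad2-Cre, 224 in Pv-Cre, 414 in Sst-Cre and 519 in Vip-Cre, against 697 in Emx-Cre. It was lower than in Emx-Cre in Gad2-Cre and Pv-Cre (log2 differences -1.27 and -1.62), and lower in Pv-Cre than in Vip-Cre (-1.20) with overlapping libraries.

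**Figure D3:**
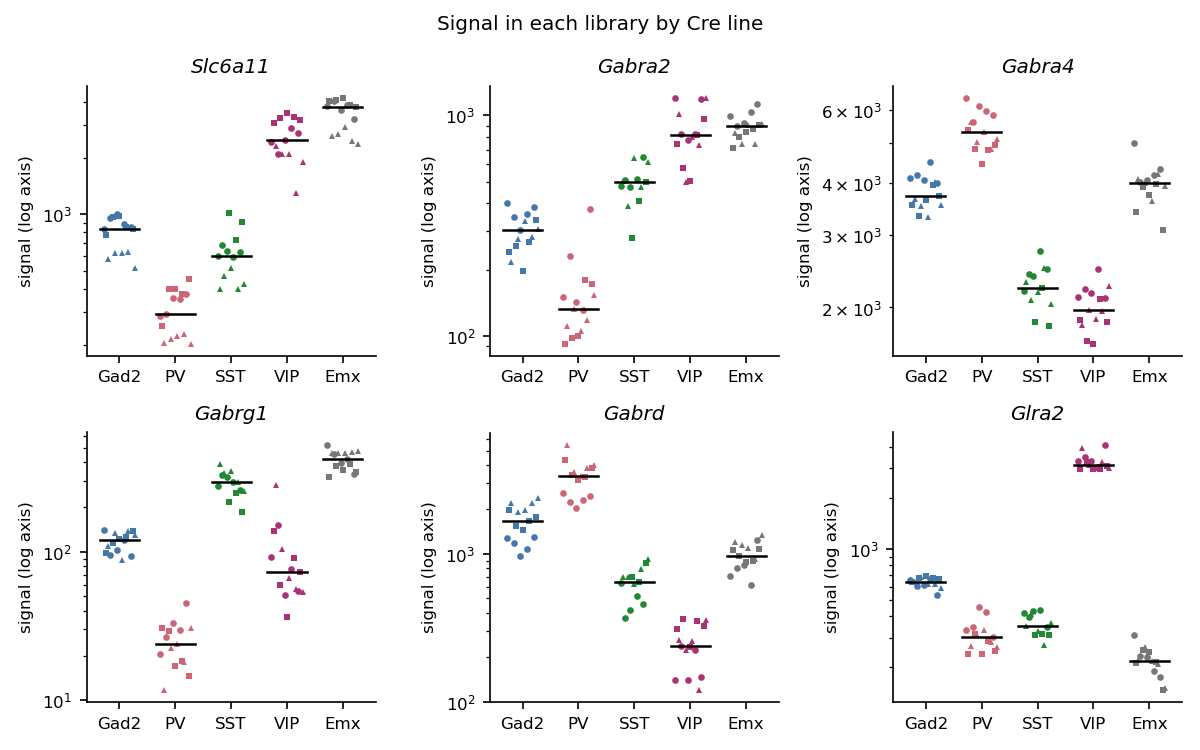
Signal of Slc6a11, Gabra2, Gabra4, Gabrg1, Gabrd and Glra2 in every library of the 5 Cre lines on a log axis; marker shapes give the replicate number and bars the medians. PV libraries are highest for Gabrd (median 3382) and lowest for Gabrg1 (median 23.8), and VIP libraries stand apart for Glra2 (median 3134).

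Gabrb2, a beta subunit gene, had medians of 17075 in Gad2-Cre, 24116 in Pv-Cre, 9718 in Sst-Cre and 14190 in Vip-Cre, against 8738 in Emx-Cre, and was called higher in Pv-Cre than in Sst-Cre (2.60-fold) and Emx-Cre (2.89-fold). Gabra5, whose alpha subunit is best known from pyramidal cells, was lower than in Emx-Cre in each of the 4 inhibitory lines, with medians of 948 in Gad2-Cre, 422 in Pv-Cre, 442 in Sst-Cre and 738 in Vip-Cre, against 2036 in Emx-Cre. Its log2 differences from Emx-Cre were -1.13, -2.36, -2.14 and -1.46 in Gad2-Cre, Pv-Cre, Sst-Cre and Vip-Cre. Gabrg3, a gamma subunit gene next to Gabra5 on chromosome 7, went the opposite way: its medians were 1227, 1367, 572 and 954 in the same 4 lines, against 295 in Emx-Cre. Gabrg3 was called higher than in Emx-Cre in all 4, by log2 differences of 2.06, 2.29, 1.11 and 1.68, and higher in Pv-Cre than in Sst-Cre by 1.18. Without replicate 1 the log2 difference of Gabrg3 between Sst-Cre and Emx-Cre was 0.97, under 2-fold, and the libraries of these lines overlapped. Gabra3 was called in no comparison; its medians were 2004, 2066, 2774 and 1543 in the inhibitory lines, against 1617 in Emx-Cre, and its largest log2 difference was 0.95, for Sst-Cre against Vip-Cre.

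The GABA-B receptor genes did not reach 2-fold in any comparison of lines. Gabbr1, whose subunit binds GABA, had medians from 11367 in Pv-Cre to 15954 in Sst-Cre, with 14729 in Emx-Cre, and Gabbr2, whose subunit couples to the G protein, from 6442 in Vip-Cre to 11401 in Pv-Cre, with 6617 in Emx-Cre. Neither was called: the largest log2 differences were -0.47 for Gabbr1, for Pv-Cre against Sst-Cre, and 0.84 for Gabbr2, for Pv-Cre against Vip-Cre. The Gabbr2 libraries of Pv-Cre, at 8816 to 13014, did not overlap those of Vip-Cre, at 4813 to 7596.

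Among glycine receptor genes, Glra2 marked the Vip line. Glra2 encodes an alpha subunit of chloride channels that glycine opens, best known from the developing brain. Its lowest, median and highest signals were 535, 638 and 691 in Gad2-Cre, 239, 302 and 452 in Pv-Cre, 272, 352 and 437 in Sst-Cre and 2955, 3134 and 4132 in Vip-Cre, against 147, 217 and 310 in Emx-Cre. All Vip-Cre libraries lay above every library of the other 4 lines. Glra2 was 15.1-fold higher in Vip-Cre than in Emx-Cre (log2 difference 3.92, SE 0.075, adjusted p = 5.11e-45), and 2.96-fold higher in Gad2-Cre than in Emx-Cre. It was lower in Pv-Cre than in Vip-Cre by a log2 difference of -3.41 and lower in Sst-Cre than in Vip-Cre by -3.16, with adjusted p-values of 3.21e-42 and 3.50e-39.

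Glra3, another alpha subunit gene, was the member with the lowest signal. Its lowest, median and highest values were 12.6, 28.3 and 60.6 in Gad2-Cre, 2.37, 10.5 and 20.6 in Pv-Cre, 32.2, 63.3 and 99.4 in Sst-Cre and 0, 11.9 and 56.2 in Vip-Cre, against 12.6, 38.5 and 61.8 in Emx-Cre. The value of 0 came from 1 library, and the smallest step of 1 read was worth 0.422 to 3.41 in signal, so that these levels rest on few reads. Glra3 was lower in Pv-Cre than in Sst-Cre by a log2 difference of -2.53 (SE 0.37, adjusted p = 3.58e-08), with no overlap. It was higher in Sst-Cre than in Vip-Cre by 2.31 and lower than in Emx-Cre by -1.81 in Pv-Cre and -1.59 in Vip-Cre, all with overlapping libraries; the last value was -0.89 with a pseudocount of 10. Glrb, whose beta subunit binds gephyrin, was called in no comparison. Its median was highest in Pv-Cre (7161) and lowest in Emx-Cre (4237), a log2 difference of 0.79.

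Of the scaffold and trafficking genes, Gphn, Gabarap and Gabarapl1 were called in no comparison of lines. Gphn, which encodes gephyrin, had medians of 1635 in Gad2-Cre, 1917 in Pv-Cre, 1760 in Sst-Cre and 2101 in Vip-Cre, against 1624 in Emx-Cre, and its largest log2 difference was 0.34. Gabarap and Gabarapl1, which encode small ubiquitin-like proteins of membrane trafficking and autophagy, had largest differences of -0.43 and 0.44; 28.3% of the Gabarapl1 exon length is shared with another annotated gene. Iqsec3, whose product is an ARF exchange factor that binds gephyrin, had medians of 5164 in Gad2-Cre, 6114 in Pv-Cre, 3737 in Sst-Cre and 4634 in Vip-Cre, against 2673 in Emx-Cre, and was called in Pv-Cre against Emx-Cre (2.30-fold, adjusted p = 1.27e-17). Slitrk3, a postsynaptic adhesion gene of inhibitory synapses, had medians of 3651, 2786, 5986 and 4871 in the same order, against 1971 in Emx-Cre. It was called higher than in Emx-Cre in Sst-Cre (2.71-fold) and Vip-Cre (2.42-fold).

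Of the chloride transporters, the loader Slc12a2 differed between lines and the extruder Slc12a5 did not reach 2-fold. Slc12a2, which encodes NKCC1, had lowest, median and highest signals of 294, 398 and 483 in Gad2-Cre, 266, 338 and 449 in Pv-Cre, 389, 522 and 659 in Sst-Cre and 462, 592 and 874 in Vip-Cre, against 716, 940 and 1147 in Emx-Cre. Libraries of Gad2-Cre, Pv-Cre and Sst-Cre all lay below Emx-Cre, and the differences of -1.28 in Gad2-Cre and -1.44 in Pv-Cre on the log2 scale were called (SE 0.090 each, adjusted p = 5.94e-19 and 3.32e-21). Slc12a5, which encodes the neuronal KCC2, had medians of 11949, 12578, 11224 and 11283 in the inhibitory lines, against 8992 in Emx-Cre, with a largest log2 difference of 0.49. The ratio of Slc12a5 to Slc12a2 signal had medians of 29.5 in Gad2-Cre, 38.8 in Pv-Cre, 22.4 in Sst-Cre and 18.4 in Vip-Cre, against 9.04 in Emx-Cre. The ratios of 23.5 to 37.0 in Gad2-Cre, 24.9 to 48.6 in Pv-Cre and 16.8 to 25.9 in Sst-Cre lay above all Emx-Cre ratios of 7.59 to 13.5. Those of Vip-Cre, 12.4 to 25.2, overlapped Emx-Cre. Slc12a2 is also known from glia; the Emx-Cre libraries held the most astrocyte and oligodendrocyte marker signal and the least microglia marker signal, and the part of glial RNA in this ratio was not tested.

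Light was tested within each line, with standard housing and each light time set against dark, so that the 4 comparisons of a line share its dark libraries. Over 5 lines the 27 members gave 540 tests. In the fit without the replicate number 1 was called (0.495% of the tests over all genes). An unadjusted limma p under 0.05 was found in 25 of the 540, beside 13972 of 284044 tests over all genes. These were 5 in Gad2-Cre, 0 in Pv-Cre, 5 in Sst-Cre, 9 in Vip-Cre and 6 in Emx-Cre for the members, a share near that of all genes. Libraries of equal replicate number deviated together in every line, so the fit with that number as a term is given beside it: 40 of 540 tests (4.81% over all genes) were then called, in 15 genes, 31 higher (3.04%) and 9 lower (1.77%). In every line 7.5 h held at least as many calls as any other condition; its libraries were also shallow, at a median of 12.9 M reads, against 33.1 M reads in dark, and the part of depth in these calls was not tested.

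**Figure D4:**
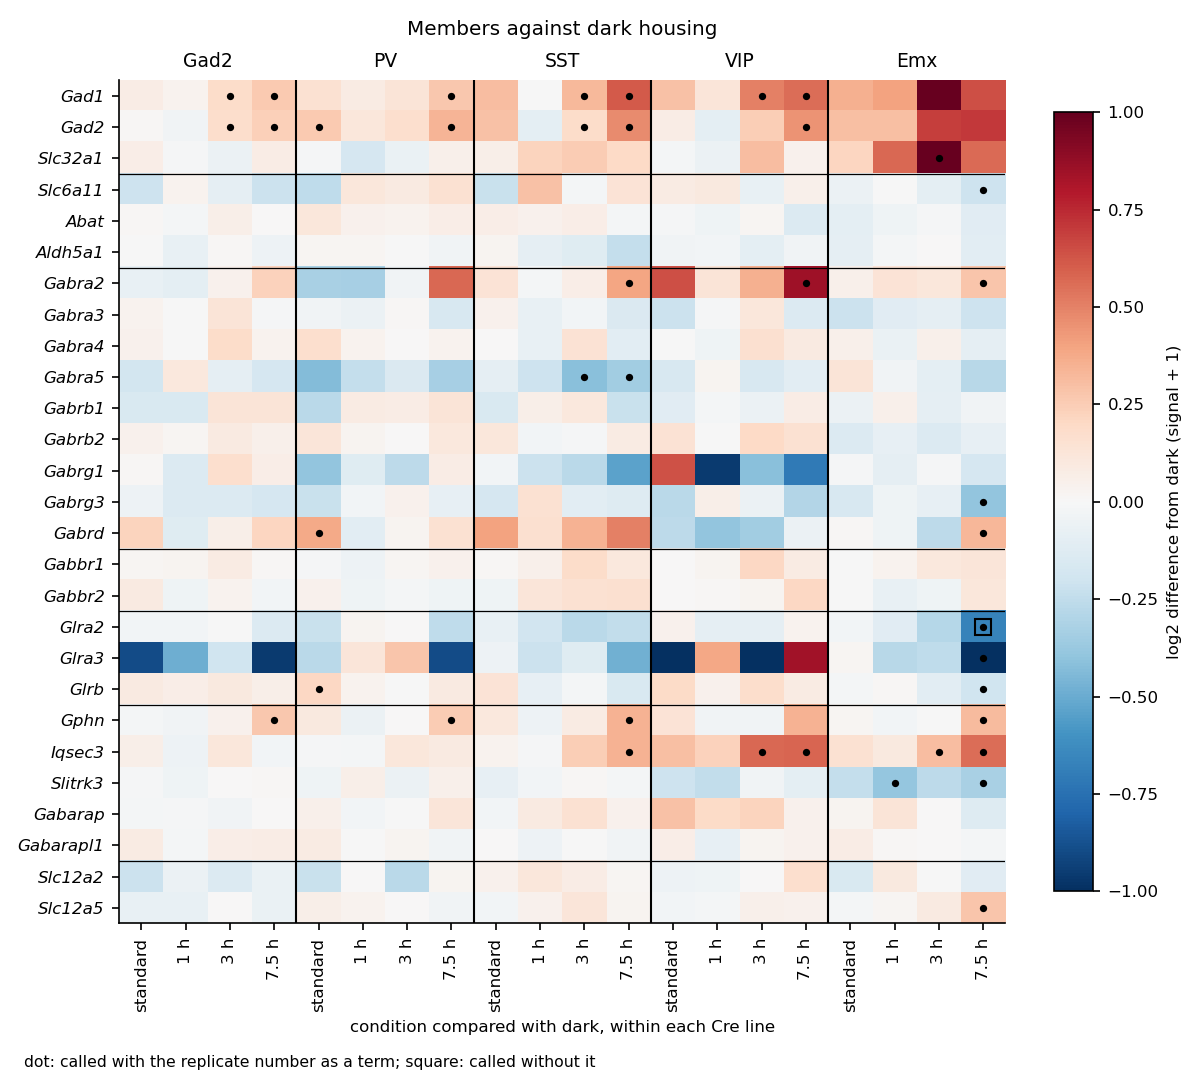
Log2 difference from dark for the 27 members under standard housing and after 1, 3 and 7.5 h of light, line by line, with colour limited to between -1 and 1; a dot marks a call with the replicate number as a term and a square a call without it. Dots gather at 7.5 h, in the rows of Gad1, Gad2, Gphn and Iqsec3 for rises and in the Emx columns for falls.

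Line by line, 2 members were called in Gad2-Cre with the replicate number at 3 h (3.11% of all genes) and 3 at 7.5 h (8.23%), and 3 in Pv-Cre at 7.5 h (7.90%) and 3 under standard housing (2.46%). In Sst-Cre there were 3 at 3 h (5.43%) and 6 at 7.5 h (17.0%), and in Vip-Cre 2 at 3 h (2.19%) and 4 at 7.5 h (1.61%). In Emx-Cre there were 1 at 1 h (2.84%), 2 at 3 h (12.2%) and 11 at 7.5 h (25.9%), of which 5 were higher and 6 lower. These 11 of the 20 comparisons held all the calls. The share of members called was close to that of all genes in Gad2-Cre, Pv-Cre and Sst-Cre at 7.5 h and in Emx-Cre at 1 h, and below it in Emx-Cre at 3 h.

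Glra2 in Emx-Cre at 7.5 h was the single call without the replicate number (3.80% of all genes in that comparison). Its signal was 174, 147 and 151 at 7.5 h, against 232, 253 and 264 in dark. All 7.5 h libraries lay below all dark libraries, and the 1 h and 3 h means of 231 and 205 lay between. Glra2 fell by 0.67 on the log2 scale (SE 0.17, adjusted p = 0.0399). This call was lost without any 7.5 h, dark or 1 h library and without replicate 2 or 3 at 3 h, with adjusted p-values of 0.0527 to 0.143. With the replicate number as a term its adjusted p was 0.00256, and it held in all 15 omissions of a library, with a largest adjusted p of 0.0243. In Vip-Cre, where Glra2 was highest, its means were 3414 at 7.5 h and 3299 in dark, and no difference was called.

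The decarboxylase genes rose after light in all 4 inhibitory lines, by the fit with the replicate number. In Vip-Cre, Gad1 signal was 30363, 26420 and 26327 at 3 h and 31348, 26258 and 28414 at 7.5 h, against 21304, 19494 and 17747 in dark. Neither light group overlapped dark. Gad1 rose 1.42-fold at 3 h and 1.47-fold at 7.5 h (log2 0.51 and 0.56, SE 0.071 each, adjusted p = 0.000233 and 7.43e-05 with the replicate number), and these calls held in every omission of 1 library. Without the replicate number the adjusted p-values were 0.183 and 0.131.

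In Sst-Cre, Gad1 signal was 22725, 19491 and 16762 at 3 h and 25590, 21347 and 24698 at 7.5 h, against 18398 and 13173 in dark. The 7.5 h libraries stood above both dark libraries, and the 3 h libraries overlapped them. Sst-Cre dark has no replicate 2, so that only 2 numbers have both a light and a dark library, while replicate 2 enters the fit through the other conditions. By this fit Gad1 rose by 0.66 at 7.5 h (SE 0.088, adjusted p = 9.31e-05), held in all 13 omissions, and by 0.37 at 3 h (adjusted p = 0.0210). The 3 h call was lost without replicate 1 at 3 h (adjusted p = 0.101) and without replicate 3 in dark (0.292).

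The Gad2 and Pv lines had smaller log2 differences. Gad1 signal at 7.5 h was 42301, 41329 and 36319 in Gad2-Cre, against 37346, 31553 and 31175 in dark, and 59241, 49480 and 43415 in Pv-Cre, against 46862, 39575 and 39400 in dark. The groups overlapped in both lines, but each of the 3 light libraries lay above the dark library of its own number. Gad1 rose by 0.26 in Gad2-Cre (SE 0.035, adjusted p = 1.69e-05) and by 0.27 in Pv-Cre (SE 0.045, adjusted p = 0.000282) with the replicate number, in every omission. At 3 h it rose by 0.18 in Gad2-Cre (adjusted p = 0.00273), also in every omission.

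By the fit with the replicate number, Gad2 was called higher at 7.5 h in the same lines as Gad1. In Vip-Cre at 3 h, where Gad1 was called, Gad2 was not. Its signal at 7.5 h was 48005, 49556 and 53559 in Gad2-Cre, against 42270, 39742 and 46042 in dark, and 48215, 36169 and 50351 in Pv-Cre, against 36181, 31329 and 38028 in dark. It was 90512, 65828 and 111650 in Sst-Cre, against 64117 and 61948 in dark, and 48797, 46003 and 59750 in Vip-Cre, against 39589, 34727 and 38464 in dark. The 7.5 h and dark libraries did not overlap in Gad2-Cre, Sst-Cre and Vip-Cre, and did in Pv-Cre. In the fit with the replicate number Gad2 rose by 0.24 in Gad2-Cre, 0.34 in Pv-Cre, 0.61 in Sst-Cre and 0.45 in Vip-Cre (adjusted p = 2.76e-05, 4.96e-05, 0.000206 and 0.00585). The Vip-Cre call was lost without replicate 3 at 7.5 h (adjusted p = 0.0791), replicate 2 in dark (0.0512) or replicate 3 in dark (0.0625), and the other 3 held in every omission. Gad2 was also called at 3 h in Gad2-Cre (log2 0.17, adjusted p = 0.00273), though not without replicate 3 at 3 h (0.0559). In Sst-Cre at 3 h its call (log2 0.32, adjusted p = 0.0359) was lost in 8 of 13 omissions, with adjusted p-values of 0.0619 to 0.341. Under standard housing Gad2 was higher than in dark in Pv-Cre by 0.26 (adjusted p = 0.00262), with signals of 45718, 35766 and 45542. Gad1 was not called in that comparison.

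Markers of cell classes were read in the same libraries. At 7.5 h, without the replicate number, the 6 markers of inhibitory classes had median log2 differences from dark of 0.11 in Gad2-Cre, 0.23 in Pv-Cre, 0.02 in Sst-Cre and 0.33 in Vip-Cre, and the 6 excitatory markers 0.06, 0.19, 0.03 and 0.32. With the replicate number 1, 3, 4 and 1 of the inhibitory markers were called, of which 1, 2, 2 and 1 were higher, and 1 excitatory marker was called higher in each line. At 3 h the median of the inhibitory markers was 0.28 in Vip-Cre. Their part in the rises of Gad1 and Gad2 was not tested.

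Of the genes at the postsynaptic scaffold, Gphn rose in 4 lines at 7.5 h by the fit with the replicate number, and in none without it. Its signal at 7.5 h was 2316, 1796 and 2008 in Emx-Cre, against 1692, 1567 and 1622 in dark, 2124, 1930 and 1789 in Gad2-Cre, against 1600, 1652 and 1596 in dark, and 2255, 2289 and 2126 in Pv-Cre, against 2135, 1726 and 1766 in dark. It was 2246, 1881 and 2246 in Sst-Cre, against 1776 and 1551 in dark, and 2693, 2442 and 2610 in Vip-Cre, against 1950, 2059 and 2087 in dark. The 7.5 h libraries lay above all dark libraries in each line but Pv-Cre, where 1 dark library overlapped. Gphn then rose with the replicate number by 0.32 in Emx-Cre (SE 0.076, adjusted p = 0.00320), in every omission. It also rose by 0.27 in Gad2-Cre (adjusted p = 0.0145), 0.25 in Pv-Cre (0.0284) and 0.36 in Sst-Cre (0.00811), while the log2 difference of 0.34 in Vip-Cre had an adjusted p of 0.161. Single libraries decided those 3 calls. In Gad2-Cre the call was lost without replicate 1 or 2 at 7.5 h (adjusted p = 0.107 and 0.0577) or replicate 1 or 3 in dark (0.0882 and 0.0614). In Pv-Cre it was lost without replicate 2 or 3 at 7.5 h (0.132 and 0.0956) or in dark (0.174 and 0.108), and in Sst-Cre without replicate 3 at 7.5 h (0.0766) or in dark (0.179).

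Iqsec3 rose in Emx-Cre, Sst-Cre and Vip-Cre by the fit with the replicate number. In Vip-Cre its signal was 5842, 5376 and 5436 at 3 h and 6549, 6118 and 4345 at 7.5 h, against 3639, 4192 and 3404 in dark. No light library of these times fell within the dark range. Iqsec3 rose with the replicate number by 0.57 at 3 h and 0.58 at 7.5 h (SE 0.12 each, adjusted p = 0.00935 and 0.00915); the 3 h call was lost without replicate 3 at 3 h (0.0759) or replicate 1 in dark (0.0874), and the 7.5 h call without replicate 1 or 2 at 7.5 h (0.105 and 0.0591) or replicate 1 in dark (0.0983). In Emx-Cre its signal at 7.5 h was 4426, 3533 and 2650, against 2895, 2480 and 1813 in dark, ranges that overlapped while each number was higher in light. That rise of 0.56 (SE 0.090, adjusted p = 8.58e-05) held in every omission, whereas the Emx-Cre call at 3 h (log2 0.31, adjusted p = 0.0274) was lost without any 3 h library or without dark replicate 2 or 3, at adjusted p-values of 0.0552 to 0.175. In Sst-Cre it rose by 0.29 at 7.5 h (adjusted p = 0.00613), with signals of 5063, 4685 and 3433, against 3960 and 2914 in dark, and this call was lost without replicate 1 in dark (0.10). In Gad2-Cre and Pv-Cre no difference of Iqsec3 was called: its means at 7.5 h were 4818 and 6657, against 4928 and 6230 in dark.

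Whether responses to light differed between lines was tested with 1 F test per gene over the 12 line-by-time terms. Without the replicate number limma called 0 members (0.317% of all genes), and 0 had an unadjusted p under 0.05, a count for which the share over all genes is not given here. With it, Iqsec3 was called (F = 3.18, adjusted p = 0.0498; 2.90% of all genes), and the other 26 members were not.

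Gabra2 rose with the replicate number at 7.5 h by 0.27 in Emx-Cre, 0.57 in Sst-Cre and 0.85 in Vip-Cre (adjusted p = 0.0368, 0.0272 and 0.0130). In Vip-Cre its signal was 1191, 963 and 1196, against 820, 575 and 499 in dark, without overlap. It was 651, 500 and 612 in Sst-Cre, against 508 and 390 in dark, with overlap, and 1126, 902 and 917 in Emx-Cre, against 894, 795 and 739 in dark, without. The Vip-Cre call was lost without replicate 2 or 3 at 7.5 h (0.0714 and 0.0981) or replicate 3 in dark (0.162), the Sst-Cre call without any 7.5 h library or dark replicate 3 (0.0512 to 0.399), and the Emx-Cre call without any 7.5 h or dark library (0.0511 to 0.130). Gabrd in Pv-Cre was higher under standard housing, at 2567, 4328 and 5470, against 2245, 3401 and 3591 in dark; the groups overlapped, and the rise of 0.38 (SE 0.071, adjusted p = 0.00218 with the replicate number) held in every omission. In Emx-Cre Gabrd rose by 0.34 at 7.5 h (adjusted p = 0.0324), but not without replicate 1 at 7.5 h (0.308) or any dark library (0.0747 to 0.0981). Gabra5 in Sst-Cre fell by 0.44 at 3 h and by 0.37 at 7.5 h (adjusted p = 0.0359 and 0.0403), at 432, 442 and 366 and at 430, 437 and 429, against 583 and 520 in dark. No light library of these times reached the dark pair. The 3 h call was lost without replicate 1 or 3 at 3 h (0.0959 and 0.199) or in dark (0.254 and 0.234), and the 7.5 h call without replicate 1 or 2 at 7.5 h (0.127 and 0.0629), replicate 2 or 3 at 3 h (0.0572 and 0.0521) or either dark library (0.219 and 0.186).

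In Emx-Cre at 7.5 h, 6 members were lower than dark with the replicate number, Glra2 among them. Glra3 had signals of 12.6, 17.1 and 25.1, against 34.3, 61.8 and 38.5 in dark, without overlap, and fell by 1.26 (SE 0.37, adjusted p = 0.0154). That call was lost without replicate 1 at 7.5 h (0.0785) or replicate 2 in dark (0.134). Slitrk3 was at 2468, 1935 and 1729, against 3166, 2607 and 1950 in dark, and fell by 0.32 (adjusted p = 0.0149), a call lost without replicate 1 or 2 at 7.5 h (0.0847 and 0.0566) or replicate 2 in dark (0.0910). It was also lower at 1 h, at 2207, 2088 and 1551, and fell by 0.39 (adjusted p = 0.0228), which was lost without replicate 1 or 3 at 1 h or any dark library (0.0547 to 0.212). Both times overlapped dark, with each number lower in light.

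Smaller falls in Emx-Cre at 7.5 h concerned Gabrg3, Slc6a11 and Glrb. Gabrg3 was at 343, 265 and 182, against 409, 315 and 295 in dark, and fell by 0.40 (adjusted p = 0.0336), a call lost without replicate 1 or 3 at 7.5 h (0.0675 and 0.227) or replicate 2 or 3 in dark (0.122 and 0.124). Slc6a11 was at 3245, 3763 and 2370, against 4042, 4094 and 2692 in dark, and fell by 0.21 (adjusted p = 0.0304), lost without replicate 1 or 3 at 7.5 h (0.127 and 0.0832) or any dark library (0.0620 to 0.142). There the 8 astrocyte markers had a median log2 difference from dark of 0.06, the 6 oligodendrocyte markers -0.21, the 6 microglia markers -0.33 and the 6 excitatory markers 0.16. With the replicate number 2, 3, 1 and 4 of them were called, and their part in these falls was not tested. Glrb was at 4091, 3384 and 4101, against 4401, 4237 and 4605 in dark, and fell by 0.20 (adjusted p = 0.0365), lost without replicate 1 or 2 at 7.5 h (0.0571 and 0.177) or replicate 2 or 3 in dark (0.155 and 0.123). Glrb groups did not overlap, and those of Gabrg3 and Slc6a11 did.

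Slc12a5 rose by 0.28 in Emx-Cre at 7.5 h, at 12225, 10288 and 8480, against 9516, 8885 and 7076 in dark (adjusted p = 0.00540), which was lost without replicate 1 at 7.5 h (0.0640). The groups overlapped, with each number higher in light. Under standard housing Glrb was higher in Pv-Cre, at 8537, 8052 and 7639, against 7099, 6820 and 7009 in dark, without overlap, by 0.21 (adjusted p = 0.0431); 10 of 15 omissions ended that call, among them those of each standard and dark library, with adjusted p-values of 0.0503 to 0.245.

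The GABA synthesis genes were low in Emx-Cre, and markers of inhibitory classes were read beside them. Slc32a1 signal at 3 h was 61.6, 85.9 and 112, against 24.1, 45.6 and 61.5 in dark, and rose by 1.02 with the replicate number (SE 0.26, adjusted p = 0.0111), a call lost without replicate 2 at 3 h (0.0523) or replicate 1 in dark (0.0616). Its 3 h libraries lay above all dark libraries. Gad1 and Gad2 had log2 differences of 1.01 and 0.69 at 3 h that were not called (adjusted p = 0.0600 and 0.147 with the replicate number). In the same libraries the 6 markers of inhibitory classes had a median log2 difference from dark of 0.46 at 1 h, 0.91 at 3 h, 0.50 at 7.5 h and 0.34 under standard housing, and their summed signal ran from 602 to 1086 at 3 h, against 310 to 441 in dark. None of the 6 was at 0 throughout; Dlx6 was at 0 in 3 of 15 Emx-Cre libraries. The part of RNA from inhibitory cells in these Emx-Cre values was not tested. Over all conditions the highest Gad2 signal in Emx-Cre, 830, came from replicate 3 at 1 h, beside 274 and 218 in replicates 1 and 2.

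The 12 members called in no comparison against dark, with or without the replicate number, were Abat, Aldh5a1, Gabra3, Gabra4, Gabrb1, Gabrb2, Gabrg1, Gabbr1, Gabbr2, Slc12a2, Gabarap and Gabarapl1. They include both enzymes of GABA breakdown and both GABA-B subunits. The share of all genes called in none of these comparisons was not worked out, so the lack of calls does not set these members apart.

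For comparison, 47 other genes of inhibitory transmission (further transporters and receptor subunits, receptor partners, chloride transport and its kinases, glutamine supply) were looked up and 41 were present. Between lines 12, 16, 15 and 16 of them were called for Gad2-Cre, Pv-Cre, Sst-Cre and Vip-Cre against Emx-Cre, where 25.4%, 31.4%, 25.4% and 24.6% of all genes were. Among the classes 8 were called for Pv-Cre against Sst-Cre (13.8% of all genes), 16 for Pv-Cre against Vip-Cre (26.5%) and 7 for Sst-Cre against Vip-Cre (16.1%). Against dark 5 of 812 tests were called without the replicate number, all higher, and 47 with it, 44 higher and 3 lower, in 18 genes. These were 0.616% and 5.79% of the tests, near the 0.495% and 4.81% over all genes. The 5 calls without the number belonged to Car7 and Plcl1 at 7.5 h.

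Car7, a neuronal carbonic anhydrase that supplies the bicarbonate which also passes through GABA-A channels, had the largest of these rises. Its signal at 7.5 h was 340, 253 and 273 in Gad2-Cre, against 114, 133 and 102 in dark, 450, 391 and 291 in Pv-Cre, against 116, 134 and 80.0 in dark, and 357, 411 and 308 in Sst-Cre, against 138 and 102 in dark. No library overlapped dark in these 3 lines. Car7 rose 2.46-fold in Gad2-Cre, 3.44-fold in Pv-Cre and 2.98-fold in Sst-Cre without the replicate number (adjusted p = 0.00363, 0.00492 and 0.00805). In Vip-Cre its log2 difference was 0.17 (SE 0.51), which was not called. Plcl1, which encodes a phospholipase C-related protein that binds GABA-A receptors and GABARAP, rose 2.37-fold in Sst-Cre, at 452, 386 and 464, against 174 and 191 in dark (adjusted p = 0.0110), and 1.48-fold in Emx-Cre, at 724, 733 and 898, against 524, 592 and 473 in dark (adjusted p = 0.0314).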

How the data were processed

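Ribosome-bound RNA of 5 Cre lines in 5 housing conditions was amplified and sequenced by the authors. Per the submitters' processing notes, TopHat2 2.0.13, Bowtie2 2.1.0.0, BWA, Cuffnorm and Cuffdiff 2.2.1 and the mm9 build were used, with no roles given. The deposited table holds normalized signal per gene and library. Low values were whole multiples of the worth of 1 read in 93.3 to 96.7% of cases (tolerance 0.1 read, up to 20 reads), from which depth was estimated. Of 14284 rows, 23 named as dates were dropped. Columns of 2 samples were empty.

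Signals were tested as log2(signal + 1) with limma 3.58.1 in R 4.3.3 (robust, trended), with Benjamini-Hochberg adjustment over all genes with signal of at least 1 in 3 libraries. Fold changes on this scale understate changes of low genes. Within each line, conditions were compared with dark. Lines were compared in 1 fit of 25 groups. Genes at 0 in any library of a line in which their median signal was at least 50 were set aside, no member among them. Samples were grouped by their labels.

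Replicate numbers were checked for pairing: deviations from group means of same-numbered libraries correlated at 0.337 to 0.801 in Emx-Cre, 0.156 to 0.758 in Gad2-Cre, 0.414 to 0.708 in Pv-Cre, 0.659 to 0.749 in Sst-Cre and 0.264 to 0.568 in Vip-Cre, so values with the replicate number as a term (the replicate block) are given too. Alternatives were pseudocounts of 0.1 and 10, other filters on low values, median-of-ratios rescaling and leaving out libraries; leaving out replicate 2 in all Sst-Cre groups, and libraries under the block, were added after seeing the data. Of the limma fits, the comparison of Emx-Cre at 7.5 h with dark, without the replicate number, was tested on simulated data, and the others were not. Promoter bases are RefSeq's. Python 3.11.15 was used for tables and figures. The members and lists were chosen with earlier results of these data known. Every member was named; libraries are given for the genes that define synthesis, packaging and chloride transport, for the 3 largest called differences in each direction of a line comparison and for calls against dark, and in part for others. Levels of some related genes are not reported here.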

Additional observations from a re-analysis of the deposited data

Results flagged for a closer look

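Iqsec3 was the only member called in the test of whether responses to light differed between lines. With the replicate number as a term its adjusted p was 0.0498 (F = 3.18, limma, Benjamini-Hochberg over all genes). That is 1 of 27 members, beside 2.90% of all genes, and without the replicate number the test called no member. The call was not checked by leaving out libraries. The log2 differences at 7.5 h were 0.56 in Emx-Cre, 0.29 in Sst-Cre and 0.58 in Vip-Cre, and the means at 7.5 h were 4818 in Gad2-Cre and 6657 in Pv-Cre, against 4928 and 6230 in dark.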

How the results depend on the processing

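The line comparisons changed little: of the alternatives for the 69 called differences, 684 kept direction and side of the threshold and 2 did not (Gabrg3 and Glra3, above), and omission of a replicate number gave 13 to 14, 16, 8 to 9, 10, 8 to 9, 8 to 10 and 5 to 6 members in the 7 comparisons in the order above. The calls against dark turned on the replicate block: with it there were 14 members and times in Emx-Cre instead of 1, 5 in Gad2-Cre, 6 in Pv-Cre, 9 in Sst-Cre and 6 in Vip-Cre instead of 0, and 1 for line by light instead of 0; the cause was not tested. Omission of a library gave 0 to 1 in Emx-Cre and 0 in the other lines without the block, and 5 to 17 in Emx-Cre, 4 to 6 in Gad2-Cre, 4 to 8 in Pv-Cre, 3 to 9 in Sst-Cre and 4 to 7 in Vip-Cre with it. Sst-Cre without replicate 2 in all groups gave 6 with the block. The planned count models were not run, since too few values came out as whole reads. Low signals rest on few reads, such as Glra3 in every line, Gabrg1 in Pv-Cre and Slc32a1 in Emx-Cre; the part of depth was not tested, and with 3 pools a group small changes go undetected.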
